A study of Mus musculus with 12 samples.

Results

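The 10 genes studied act in the cranial neural crest and in the change from epithelium to mesenchyme. They are the bHLH factors Twist1 and Twist2, the zinc finger repressors Snai1 and Snai2, the zinc finger and homeobox repressors Zeb1 and Zeb2, the AP-2 factors Tfap2a and Tfap2b, the receptor gene Pdgfra, and the repressor gene Hic1. All were taken by symbol from the gene tables. All 10 were found among the 56691 genes listed, and all 10 passed the filter on low counts that left 17335 genes for testing. The tissue was mouse palatal shelf, the outgrowths of the upper jaw that fuse into the roof of the mouth, dissected on gestational day 12 and measured by RNA sequencing in 12 libraries. The knockout embryos, which received no treatment, had a conditional knockout of Dnmt1, the maintenance DNA methyltransferase, and the controls were wild type embryos that received no treatment either. The AzadC group was wild type and treated with 5-aza-2'-deoxycytidine, a cytosine analogue that traps DNA methyltransferases, and the vehicle group was wild type and received its vehicle. There were 3 libraries in each group, and each library was made from the shelves of 2 embryos of the same genotype. Each group held 6 embryos, with at most 3 from 1 litter and at least 3 litters per genotype. Which litters went into which library is not given, so libraries may share litters. The Cre driver of the knockout, the cells it is active in, and the dose, route and timing of AzadC are stated in none of the sources used here.

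Neural crest cells leave the edge of the neural tube by loosening their contacts and becoming migratory, and those of the head fill the face and form most of the palatal mesenchyme. TWIST, SNAI and ZEB proteins bind E-box motifs and repress genes of epithelial adhesion such as Cdh1 (E-cadherin) in this transition. AP-2 proteins act earlier, at the border where the crest is specified, and also in the overlying ectoderm. PDGFRA is the receptor through which PDGF ligands act on crest-derived mesenchyme, and mice without it have facial clefts.

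The libraries held from 12640536 to 33113790 expected counts. Dnmt1 itself was at 201, 179.6 and 191 CPM (read counts relative to the TMM-scaled size of each library) in knockout replicates 1, 2 and 3, 286, 278 and 258 in control, 452, 451 and 448 in vehicle and 408, 482 and 411 in AzadC, so that the knockout libraries were the lowest and the control libraries lay below both other wild type groups. The vehicle and control libraries also differed at 3.52% of all genes tested, so knockout changes are given against both. All 16 palatal mesenchyme markers were detected, with a summed level of 1078 to 1958 CPM across the 12 libraries. The control sums (1535 to 1958 CPM) lay above all vehicle sums (1078 to 1469 CPM) and all AzadC sums (1319 to 1435 CPM). The knockout sums (1125 to 1610 CPM) overlapped those of every other group. By edgeR's quasi-likelihood test 4 of the 16 were lower in the knockout than in control and 0 higher (6.43% and 7.83% of all genes), and 2 were lower than in vehicle (4.13% of all genes). The 16 macrophage markers summed to 402 to 443 CPM in the knockout libraries. Their sums were 186 to 202 CPM in AzadC, 118 to 149 in vehicle and 92.1 to 130 in control, so AzadC lay above both other wild type groups. Of the 16, 15 were higher in the knockout than in control and 15 than in vehicle (7.83% and 6.7% of all genes). The 16 cartilage markers summed to 386 to 643 CPM in the knockout libraries and 1031 to 3138 CPM in the others. All 12 that could be tested were lower in the knockout than in control, and 5 of the 12 were lower than in vehicle. In vehicle against control 3 of the 12 were lower, where 2.06% of all genes were. In bulk tissue, fewer cells of a type and less RNA per cell cannot be told apart, and the part of these shifts in the results was not tested.

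Of the 10 genes, 5 (Twist1, Twist2, Snai1, Zeb2 and Pdgfra) were lower in all 3 knockout libraries than in all 9 others, as were 4.85% of all genes. The sequence upstream of their starts is printed to show its CpG sites. Whether these sites are methylated in the palatal shelf was not measured, and no link between this sequence and the lower levels was tested. Each window is the 250 bases before a RefSeq start (GRCm38.p6), 5′ to 3′ on the strand of the gene, with every CpG site in capitals. Such windows were read for 8 of the 10 genes, not for Snai2 and Zeb1, and those of the 5 are printed.
Twist1, chr12:33957421-33957670, plus strand: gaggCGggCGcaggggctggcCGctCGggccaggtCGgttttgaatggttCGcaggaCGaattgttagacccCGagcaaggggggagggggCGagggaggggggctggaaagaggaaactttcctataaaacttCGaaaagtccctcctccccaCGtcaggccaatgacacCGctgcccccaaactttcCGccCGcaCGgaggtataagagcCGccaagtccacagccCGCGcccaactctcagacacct
Twist2, chr1:91801211-91801460, plus strand: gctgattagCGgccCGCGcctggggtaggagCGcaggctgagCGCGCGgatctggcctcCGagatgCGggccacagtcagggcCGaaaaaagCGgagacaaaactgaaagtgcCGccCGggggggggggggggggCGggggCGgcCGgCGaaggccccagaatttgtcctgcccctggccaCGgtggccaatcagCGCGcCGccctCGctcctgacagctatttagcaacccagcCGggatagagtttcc
Snai1, chr2:167537945-167538194, plus strand: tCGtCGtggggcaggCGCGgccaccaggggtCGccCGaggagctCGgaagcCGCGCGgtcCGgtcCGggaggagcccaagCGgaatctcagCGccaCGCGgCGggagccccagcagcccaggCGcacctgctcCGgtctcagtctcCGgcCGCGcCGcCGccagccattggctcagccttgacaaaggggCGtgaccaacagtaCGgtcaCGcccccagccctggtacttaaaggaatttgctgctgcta
Zeb2, chr2:45117443-45117692, minus strand, the outermost of its starts: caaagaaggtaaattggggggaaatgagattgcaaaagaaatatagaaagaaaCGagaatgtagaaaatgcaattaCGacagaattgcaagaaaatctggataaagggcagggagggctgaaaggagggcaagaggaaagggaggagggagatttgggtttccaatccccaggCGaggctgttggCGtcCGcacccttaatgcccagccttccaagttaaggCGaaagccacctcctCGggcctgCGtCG
Pdgfra, chr5:75152001-75152250, plus strand: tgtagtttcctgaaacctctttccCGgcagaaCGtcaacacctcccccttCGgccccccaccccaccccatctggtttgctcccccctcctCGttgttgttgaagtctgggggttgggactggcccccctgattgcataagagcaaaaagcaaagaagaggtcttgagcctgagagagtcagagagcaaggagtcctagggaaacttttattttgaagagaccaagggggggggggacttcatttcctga
The 5 windows differ widely in CpG content. The Snai1 window holds 27 CpG sites, the Twist2 window 23, the Twist1 window 18, the Zeb2 window 9 and the Pdgfra window 4, against a median of 6 and quartiles of 2 and 16 over all 32851 windows of this length. Windows at other Zeb2 starts hold 6, 6 and 14. Among genes outside the 5, the Hic1 windows hold 18 and 22, the Tfap2a windows 10 each and the Tfap2b window 5, so high CpG content is not particular to the 5. The letters CACCTG, read on either strand, are a form of the E-box bound by SNAI and ZEB proteins and are a case of the general E-box CANNTG. They occur in the Snai1 window and in no other of the 5, in 1 Hic1 window, and in 17.2% of all windows. CANNTG occurs in the Snai1 and Pdgfra windows, in the Tfap2b window and 1 Hic1 window, and in 66.2% of all windows.

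In the control libraries the genes spanned a wide range of levels. Per length, as TPM with the SD over 3 libraries, Twist1 stood at 204 ± 25.3 and Pdgfra at 173 ± 28.2, the highest of the 10. Snai2 at 52.7 ± 4.55, Snai1 at 41.1 ± 11.1 and Zeb2 at 39.5 ± 4.96 formed a middle tier in which neighbours did not separate beyond their spread, followed by Twist2 at 25.6 ± 4.09 and Zeb1 at 24.1 ± 3.27. Hic1 at 4.19 ± 2.49, Tfap2a at 3.62 ± 0.937 and Tfap2b at 1.88 ± 1.23 were the lowest. The AP-2 genes of the crest border thus gave far less RNA per length than the mesenchymal factors at this stage.

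**Figure D1:**
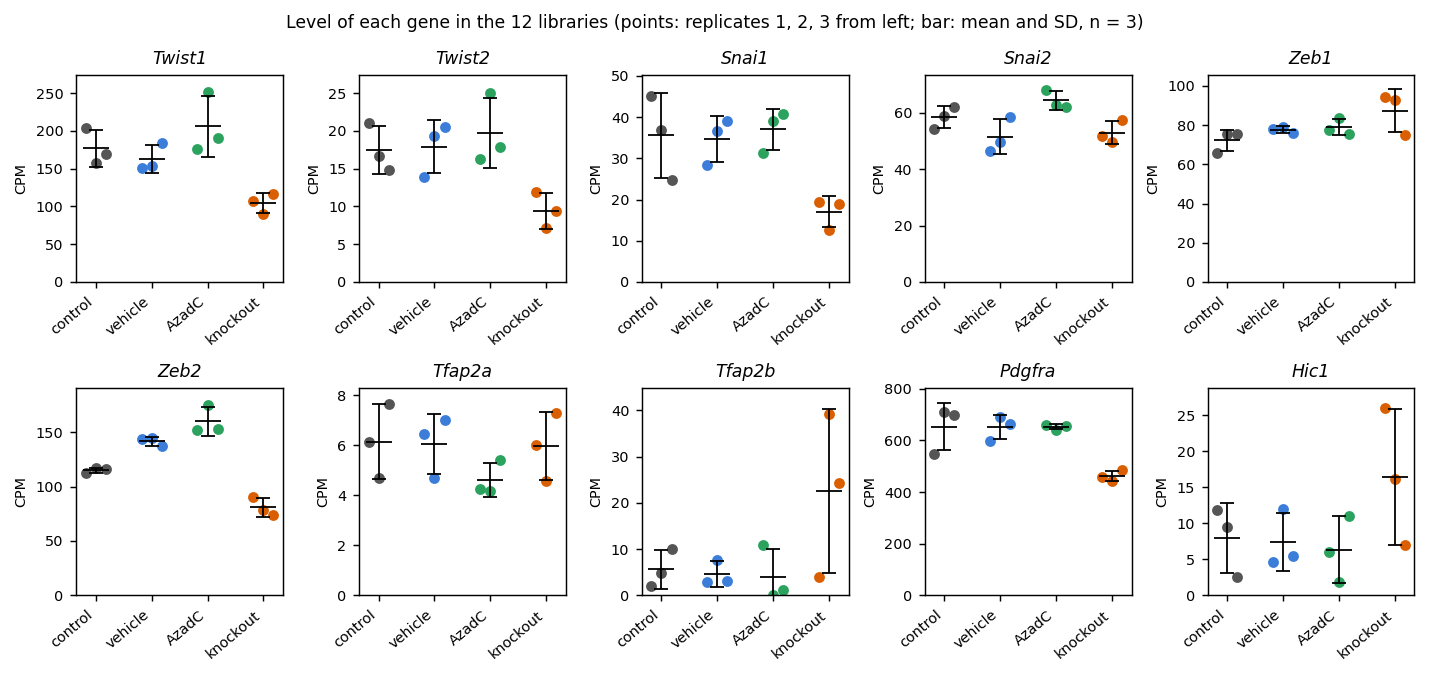
CPM (linear axes from 0) of the 10 genes in the 12 libraries by group; points are libraries and bars the mean and SD of 3. The knockout points of Twist1, Twist2, Snai1, Zeb2 and Pdgfra lie below all others, while those of Tfap2b and Hic1 are spread widely.

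Twist1, a single-transcript gene on chromosome 12 (33957671 to 33959829, plus strand, mm10), is needed for the migration and mesenchymal fate of cranial crest. It was at 107, 90.5 and 116 CPM in knockout replicates 1, 2 and 3, 204, 157 and 169 in control, 150.5, 153 and 184 in vehicle and 176, 251 and 191 in AzadC. Every knockout library was below every other library, and the 3 wild type groups overlapped. Twist1 fell to 0.592 of the control level (log2 change -0.76, SE 0.14, adjusted p = 0.00319) and to 0.644 of the vehicle level (adjusted p = 0.0107). The call against vehicle was lost without knockout 2 (adjusted p = 0.0614) or without vehicle 3 (adjusted p = 0.0585), and the call against control held in each of its 15 alternatives.

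Twist2, the close relative that acts in dermis and bone precursors, lies on chromosome 1 (91801461 to 91848028, plus strand). It was at 11.9, 7.09 and 9.36 CPM in the knockout, 21.02, 16.7 and 14.8 in control, 13.9, 19.3 and 20.5 in vehicle and 16.2, 25.02 and 17.9 in AzadC. The knockout libraries again did not overlap any others. Its level was 0.538 of control (log2 change -0.89, SE 0.22, adjusted p = 0.0164) and 0.525 of vehicle (adjusted p = 0.0161). Twist2 no longer passed against control without control 1 (adjusted p = 0.0602) or knockout 2 (adjusted p = 0.0784), nor against vehicle without knockout 2 (adjusted p = 0.08203), vehicle 2 (adjusted p = 0.0524) or vehicle 3 (adjusted p = 0.0743). An antisense gene, Gm29100, overlaps it and was listed at 2.79 to 6.97 CPM; whether the counting used strand is not stated, so reads of the pair may be mixed.

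Snai1, the repressor that starts the loss of E-cadherin, lies on chromosome 2 (167538195 to 167542814, plus strand). It was at 19.5, 12.7 and 18.9 CPM in the knockout, 45.1, 36.8 and 24.8 in control, 28.4, 36.6 and 39.1 in vehicle and 31.4, 39.01 and 40.8 in AzadC. The highest knockout library lay below the lowest control library, control 3. Snai1 had the largest fall of the 10 genes against control, to 0.476 of its level (log2 change -1.07, SE 0.21, adjusted p = 0.00489), and it fell to 0.4896 of the vehicle level (adjusted p = 0.00726). Both calls held in each of their 15 alternatives.

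Snai2 (Slug), the paralog used by migrating crest, lies on chromosome 16 (14705852 to 14709385, plus strand). It was at 51.8, 49.7 and 57.4 CPM in the knockout, 54.4, 58.99 and 62.2 in control, 46.6, 49.6 and 58.4 in vehicle and 68.2, 62.6 and 62.2 in AzadC. Knockout libraries overlapped both references. The knockout change was -0.14 against control (95% interval -0.34 to 0.055, adjusted p = 0.3404) and 0.037 against vehicle (interval -0.16 to 0.24, adjusted p = 0.857), intervals that do not reach the fall of Snai1. In AzadC its 3 libraries were above the 3 vehicle libraries, with a log2 difference of 0.32 that did not pass (unadjusted p = 0.00426, adjusted p = 0.503).

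Zeb2, mutated in Mowat-Wilson syndrome and needed for crest delamination, lies on chromosome 2 (44983632 to 45117395, minus strand). It was at 90.6, 78.9 and 73.5 CPM in the knockout, 112, 117 and 116 in control, 144, 145 and 137 in vehicle and 152, 175 and 153 in AzadC. All 4 groups were apart in the order knockout, control, vehicle, AzadC. Zeb2 fell to 0.705 of control (log2 change -0.50, SE 0.08, adjusted p = 8.92e-04) and to 0.571 of vehicle (-0.81, adjusted p = 1.81e-05), and both calls held in each of their 15 alternatives. It was the one gene of the 10 that differed between vehicle and control, with a log2 difference of 0.30 (adjusted p = 0.0479; 1.46% of all genes were called higher), a call that was lost without any 1 of the 6 libraries (adjusted p up to 0.153 without vehicle 1, and 0.103 without vehicle 3). Its antisense neighbour Zeb2os was listed at 2.68 to 6.48 CPM. Macrophages also express Zeb2. The macrophage marker sum was highest in the knockout, where Zeb2 was lowest, and among the 9 other libraries the log2 levels of Zeb2 and of these markers had r = 0.81 (exact permutation p = 0.010, adjusted p = 0.375 over 110 relations) and rho = 0.75 (exact permutation p = 0.025, adjusted p = 0.579). Without the 2 libraries farthest from the median marker sum r was 0.70. The libraries of these groups stand apart in Zeb2. A check added after the pooled values were seen centred both measures within each of the 3 groups. There r was -0.11 (exact permutation p = 0.583 over the 216 orders within groups, adjusted p = 0.953). With 3 libraries in each group this check is too small to decide whether a relation holds within groups. The part of macrophages in the Zeb2 level was not tested.

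Zeb1, the paralog that shares the repressor domains of Zeb2, lies on chromosome 18 (5591860 to 5775467, plus strand). It was at 94.6, 92.6 and 75.02 CPM in the knockout, 65.9, 75.2 and 75.5 in control, 77.8, 79.2 and 76.1 in vehicle and 77.4, 83.5 and 75.7 in AzadC. Knockout 3 lay below 2 of the control libraries. Zeb1 rose to 1.21 times control (log2 change 0.28, SE 0.09, adjusted p = 0.04905), the only one of the 10 called higher, and did not pass against vehicle (0.17, adjusted p = 0.249). The call was lost in 8 of 15 alternatives, among them leaving out any control library, knockout 1 or knockout 2 (adjusted p = 0.151, 0.0815, 0.0538, 0.173 and 0.183).

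Pdgfra lies on chromosome 5 (75152292 to 75198215, plus strand). It was at 459, 443 and 484 CPM in the knockout, 547, 711 and 698 in control, 598, 689 and 664 in vehicle and 659, 641 and 657 in AzadC. The knockout libraries were the 3 lowest, and the AzadC mean of 652 ± 9.88 CPM (SD, n = 3) was close to the vehicle mean of 651 ± 46.8. Pdgfra fell to 0.709 of control (log2 change -0.50, SE 0.09, adjusted p = 0.00265) and 0.7101 of vehicle (adjusted p = 0.00322), and both calls held in each of their 15 alternatives.

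Tfap2a and Tfap2b, the AP-2 factors, gave no call in any comparison. Tfap2a, on chromosome 13 (40715302 to 40738376, minus strand), was at 6.03, 4.58 and 7.29 CPM in the knockout, 6.14, 4.67 and 7.64 in control, 6.43, 4.69 and 7.02 in vehicle and 4.26, 4.18 and 5.41 in AzadC. Its groups overlapped, and the interval of the knockout change was -0.56 to 0.47 against control and -0.53 to 0.50 against vehicle. Tfap2b, on chromosome 1 (19208914 to 19238576, plus strand), was at 4.02, 39.3 and 24.4 CPM in the knockout, 1.91, 4.79 and 10.1 in control, 2.78, 7.74 and 3.15 in vehicle and 10.9, 0.121 and 1.102 in AzadC. Its highest 2 libraries were knockout 2 and 3, while knockout 1 lay below control 2 and 3. The knockout change of Tfap2b was 2.05 against control (SE 0.98, adjusted p = 0.195) and 2.27 against vehicle (adjusted p = 0.1700), and it passed only with no filter on low counts (adjusted p = 0.00612 and 0.00251).

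Hic1, a repressor gene whose promoter is methylated in many tumours, lies on chromosome 11 (75164565 to 75169519, minus strand). It was at 25.99, 16.1 and 7.05 CPM in the knockout, 11.9, 9.46 and 2.57 in control, 4.64, 12.02 and 5.48 in vehicle and 6.07, 1.88 and 11.1 in AzadC. Within each group the libraries differed several-fold and the groups overlapped. The knockout change was 1.02 against control (SE 0.62, adjusted p = 0.312) and 1.14 against vehicle (adjusted p = 0.286), and neither passed. With a score of skeletal muscle markers as a covariate both signs turned (-0.94 against control, adjusted p = 0.157, and -0.0298 against vehicle). The score was 3.35, 2.32 and 0.80 in knockout replicates 1, 2 and 3 and 0.072, -0.84 and -4.43 in control, with no overlap. Score and knockout are thus partly confounded, and no fit with this score can fully separate them. The 18 muscle markers summed to 204 to 1223 CPM in the knockout and 8.27 to 496 CPM in the other libraries.

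The 10 genes were also set against markers of other tissues that a dissection could hold. Over the 9 libraries outside the knockout, Hic1 and the muscle sum had r = 0.76 (exact permutation p = 0.014, adjusted p = 0.375) and rho = 0.87 (exact permutation p = 0.005, adjusted p = 0.248), with r = 0.69 without the 2 libraries farthest from the median muscle sum and r = 0.88 within groups (exact permutation p = 0.00926, adjusted p = 0.3395). Tfap2a and the summed 16 epithelial markers had r = 0.76 (exact permutation p = 0.013, adjusted p = 0.375) and rho = 0.90 (exact permutation p = 0.002, adjusted p = 0.223), with r = 0.91 without the 2 farthest and r = 0.81 within groups (exact permutation p = 0.00463, adjusted p = 0.3395). Tfap2a also had r = -0.76 with endothelial markers (exact permutation p = 0.012, adjusted p = 0.375; rho = -0.72, -0.64 without the 2 farthest, -0.59 within groups). Hic1 had r = 0.70 with cartilage markers (exact permutation p = 0.033, adjusted p = 0.686; rho = 0.73, 0.77 without the 2 farthest, 0.72 within groups). Zeb1 had r = -0.64 with Schwann cell and glial markers (exact permutation p = 0.049, adjusted p = 0.686; rho = -0.60, -0.44 without the 2 farthest, -0.40 within groups). Of the 110 relations computed between the 10 genes and 11 marker lists, 6 had an unadjusted p for r below 0.05 and 0 passed the adjustment. Msx1, a factor of the anterior palate, was set beside Tfap2b after its values were seen: AzadC 2, lowest in Tfap2b, was also lowest in Msx1 at 0.485 CPM. Knockout 2 and 3, highest in Tfap2b, were at 30.4 and 27.4 CPM of Msx1, and control 3 was highest in Msx1 at 31.3 CPM with 10.1 CPM of Tfap2b. Other libraries did not follow this order: AzadC 1 had 10.9 CPM of Tfap2b with 6.78 CPM of Msx1, control 1 had 1.91 with 10.6, and control 2 had 4.79 with 0.958. Shox2 and Osr2, other palatal mesenchyme markers, were also read. Shox2 too was lowest in AzadC 2 (3.15 CPM), but it was highest in control 3 and 1 (95.1 and 48.2 CPM), with 20.7 and 27.9 CPM in knockout 2 and 3. Osr2 was lowest in vehicle 1 (37.8 CPM), was at 56.6 CPM in AzadC 2, and was highest in control 3 (142 CPM).

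**Figure D2:**
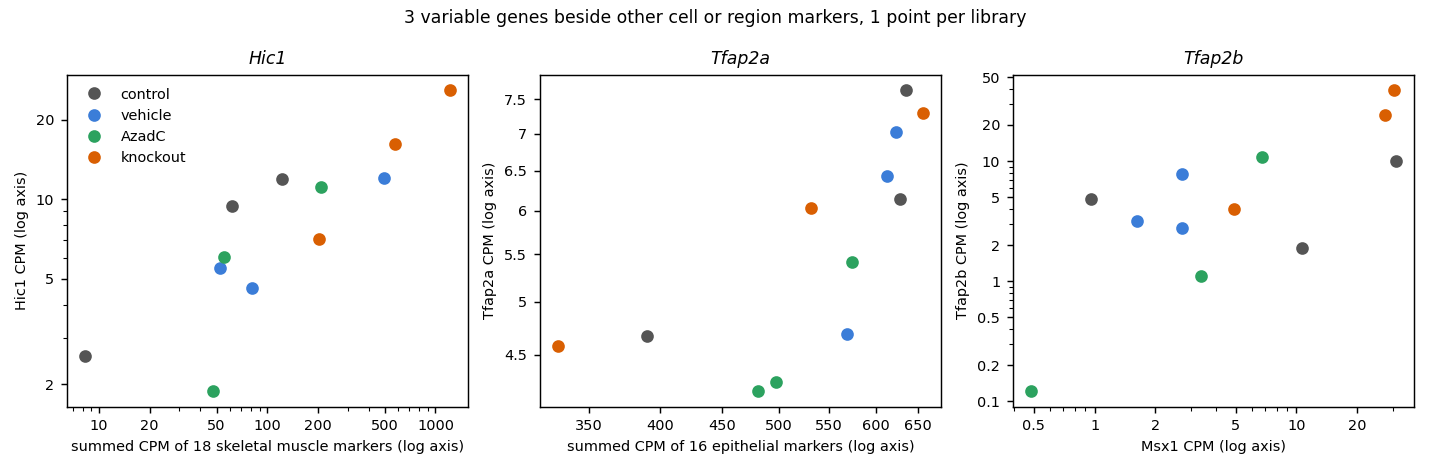
Each point is 1 library, coloured by group, on log axes: Hic1 CPM against the summed CPM of 18 skeletal muscle markers, Tfap2a CPM against the summed CPM of 16 epithelial markers, and Tfap2b CPM against Msx1 CPM. Knockout 1, with the highest muscle sum (1223 CPM), has the highest Hic1, and knockout 2, with the lowest epithelial sum, is among the lowest in Tfap2a.

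Against control, 6 of the 10 genes passed in the knockout, 5 lower (Twist1, Twist2, Snai1, Zeb2 and Pdgfra) and 1 higher (Zeb1), where 14.3% of all genes passed, 6.43% lower and 7.83% higher. Against vehicle the 5 were lower and none was higher, where 10.8% of all genes passed, 4.13% lower and 6.7% higher; both counts rest on the same knockout libraries. The count against vehicle was 3 without knockout 2 and 3 without vehicle 3. The median log2 change of the 10 was -0.32 against control and -0.26 against vehicle, beside -0.0026 and -0.0033 over all genes. Of all genes, 4.85% had every knockout library below every other library.

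AzadC gave 0 calls of 10 against vehicle by edgeR, 0 by DESeq2 and 0 by limma-voom, where edgeR called 0.0115% of all genes. By edgeR, 3 of the 10 had an unadjusted p below 0.05, all higher: Snai2 at 0.32, Twist1 at 0.34 (unadjusted p = 0.0296) and Zeb2 at 0.17 (unadjusted p = 0.0432). The share of all genes below this unadjusted threshold is not given here, so the count has no baseline. The 95% interval of the AzadC change was 0.039 to 0.64 for Twist1, -0.33 to 0.60 for Twist2, -0.35 to 0.54 for Snai1, 0.0061 to 0.34 for Zeb2 and -0.19 to 0.20 for Pdgfra. For none of these 5 did the interval reach the estimated knockout change against control. That estimate has an error of its own, left out here. The test of the difference takes it in, and did not pass for Twist2 (edgeR adjusted p = 0.0772).

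**Figure D3:**
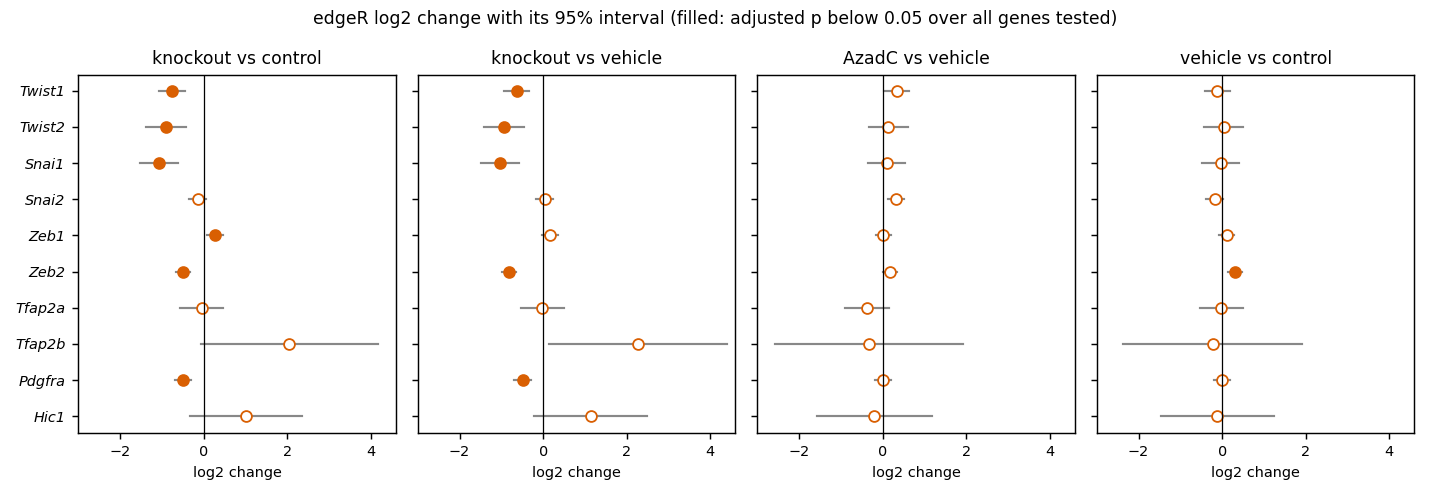
Log2 change of each gene (x axis) with its 95% interval in 4 comparisons, filled where edgeR's adjusted p was below 0.05. The 5 genes called lower in the knockout are the same against control and vehicle, and the AzadC panel has no filled point.

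The knockout change (against control) and the AzadC change (against vehicle) were compared in 1 test per gene. The difference was negative and passed for Twist1 (-1.10, SE 0.20, adjusted p = 0.00867), Zeb2 (-0.68, SE 0.11, adjusted p = 0.00449), Pdgfra (-0.50, SE 0.13, adjusted p = 0.0428) and Snai1 (-1.17, SE 0.30, adjusted p = 0.0438), 4 of 10 where 4.4% of all genes passed and 2.2% were negative. It did not pass for Twist2 (-1.03, adjusted p = 0.0772) or Snai2 (-0.46, adjusted p = 0.0633), which DESeq2 called. The calls of Twist1 and Zeb2 held in each of 20 alternatives. That of Pdgfra was lost in 11 of them, with the muscle score as a covariate or with any 1 AzadC or vehicle library, control 2 or 3, or knockout 1 or 2 left out, and that of Snai1 in 12, with the replicate block or any 1 library but control 3 left out, as far as adjusted p = 0.1697 for Pdgfra with the muscle score and 0.108 for Snai1 without knockout 2.

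Paralogs were also set against each other within each library, as ratios of TPM, which removes the library scale. Snai1 over Snai2 was 0.484, 0.330 and 0.425 in the knockout and 1.07, 0.804 and 0.513 in control, a mean log2 difference of -0.90 with no overlap. Zeb2 over Zeb1 was 1.001, 0.818 and 0.988 in the knockout and 1.66, 1.69 and 1.58 in control (log2 difference -0.82), and 2.40, 1.92 and 2.05 in vehicle (-1.18), with no overlap in either pair of groups. Zeb2 thus gave more RNA per length than Zeb1 in every wild type library and about as much in the knockout. Vehicle lay above control in this ratio by 0.36, also with no overlap, and the AzadC ratios of 2.11, 2.12 and 2.11 fell within the vehicle range. Twist1 over Twist2 overlapped between knockout and control (mean log2 3.15 and 2.996), as did Tfap2b over Tfap2a (0.56 and -1.21). With 3 libraries against 3 the exact permutation test (two-sided) cannot go below p = 0.1, which the separated pairs reached, and over the 16 tests made this adjusts to 0.32.

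**Figure D4:**
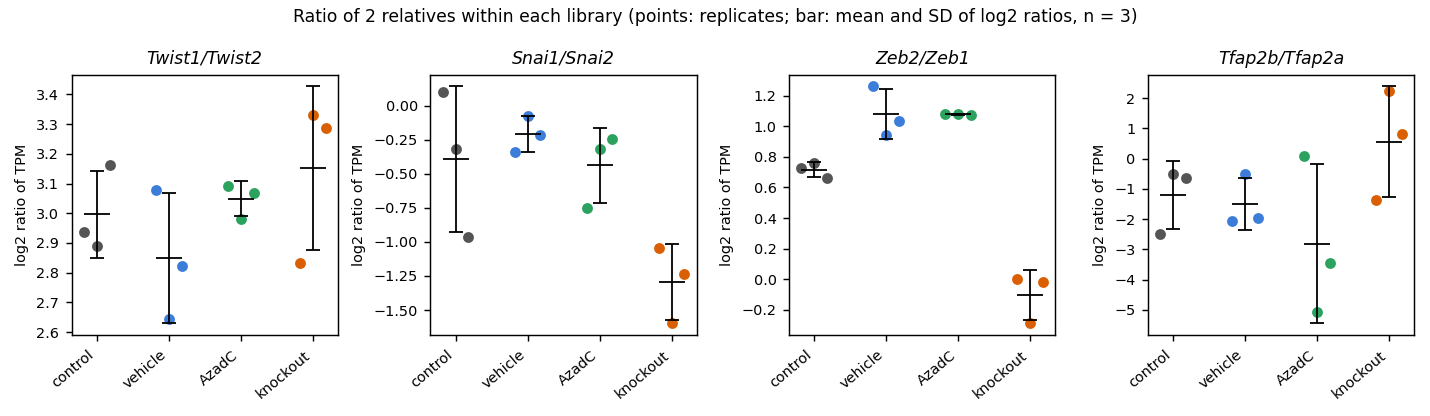
Log2 ratio of the TPM of paralogs within each library (y axis) by group; points are libraries and bars the mean and SD of 3. The knockout points of Snai1/Snai2 and Zeb2/Zeb1 lie below all others, and those of Twist1/Twist2 and Tfap2b/Tfap2a overlap other groups.

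For each gene with a call, the 3 genes with the most similar profile were found among 9896 genes with a mean of at least 10 CPM, by the root mean square difference of centred log2 CPM over the 12 libraries. Foxf2, a forkhead factor of palatal mesenchyme, came first for Snai1 (0.15), Twist1 (0.16) and Twist2 (0.16). Foxf2 was at 106, 77.3 and 111 CPM in the knockout and 189, 185 and 151 in control. Twist2 and Snai1 were also in each other's lists (0.17), and Twist1 was in that of Twist2 (0.19). Magi2 was also near Snai1, and Col23a1 near Twist1. Pdgfra was closest to Rftn2, Setbp1 and Stat5b (0.069 to 0.079), and Zeb2 to Ldb2, Scd1 and Zdbf2 (0.11 to 0.15). Zeb1 was near Arfgef2 (0.060) and Gga2 (0.066). The profile of each gene includes the knockout difference, so genes that share it come near.

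For the lists that follow, the shares over all genes were 6.43% lower and 7.83% higher against control, and 4.13% lower and 6.7% higher against vehicle. Among the relatives of the 10 genes, 9 of 16 could be tested, and against control 2 were higher and 1 lower in the knockout (4 higher with no filter). Pdgfrb, the sister receptor of Pdgfra, fell from 284, 319.9 and 310.1 CPM in control to 239, 219 and 241 (log2 change -0.38, adjusted p = 0.00208) and was also lower than vehicle (-0.35, adjusted p = 0.00489). Kit, a receptor kinase of melanoblasts, rose from 27.99, 24.1 and 26.4 to 48.7, 45.2 and 45.8 CPM (0.83, adjusted p = 1.14e-05), but Kit was higher in vehicle than in control too, by 0.63 (adjusted p = 0.00128), and the knockout did not pass against vehicle (0.20, adjusted p = 0.1098). Msc, a bHLH factor of head muscle, was the other rise (3.27, adjusted p = 0.0141), which was lost without control 2, without knockout 1, and with the muscle score as a covariate, and did not pass against vehicle (1.47, adjusted p = 0.225). Against vehicle 1 was higher, Tfap2c (1.10, adjusted p = 0.0413), an AP-2 relative whose call was lost without any 1 library but knockout 1, and 1 was lower.

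Of 24 dimerisation partners, inhibitors and corepressors, 1 was lower against control and 0 higher. That gene was Id2, whose product keeps bHLH factors from DNA: it was at 147, 124 and 136 CPM in control and 86.3, 82.97 and 99.5 in the knockout (-0.60, adjusted p = 4.29e-04; against vehicle -0.58, adjusted p = 6.22e-04). The E proteins Tcf3, Tcf4 and Tcf12, with which TWIST proteins pair, gave no call in either comparison. Without control 3, 2 were lower and 1 higher, without knockout 3, 2 were lower, and with the muscle score as a covariate 4 were lower. Against vehicle 4 were lower, including Ctbp2, a corepressor of ZEB proteins (-0.27, adjusted p = 0.0164), a count that was 1 without knockout 2, vehicle 2 or vehicle 3 and 2 without knockout 1.

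Of 29 tested genes of crest specification, 5 were lower and 4 higher against control, and 4 lower and 2 higher against vehicle, beside the shares over all genes given above. With the muscle score as a covariate 7 were lower and 2 higher against control. Pax7, a gene of this list, is itself part of the muscle score. Sox9, a factor of crest and cartilage, fell from 99.6, 133 and 71.5 CPM in control to 30.8, 23.6 and 33.3 (-1.80, adjusted p = 3.01e-05; against vehicle -1.66, adjusted p = 6.12e-05). Sox5, which acts with it in cartilage, changed by -1.31 (adjusted p = 3.49e-04) and against vehicle by -1.56 (adjusted p = 9.25e-05). The cartilage marker sums given above, which include Sox9 and Sox5, fell with them, and their part was not tested. Lmo4 was lower by -0.72 (adjusted p = 8.22e-04; against vehicle -0.42, adjusted p = 0.0264, lost without knockout 2, vehicle 2 or vehicle 3) and Msx2 by -2.56 (adjusted p = 0.00105), but Msx2 was about as low in vehicle, at 2.17, 3.599 and 3.95 CPM beside 1.96, 1.92 and 3.56 in the knockout and 9.66, 22.9 and 10.8 in control. The higher genes, named after their values were seen, were Gbx2 (3.004, adjusted p = 0.00616), Pax7 (4.12, adjusted p = 0.0141), Crabp2 (0.32, adjusted p = 0.0329) and Mycn (0.69, adjusted p = 0.0475). Against vehicle none of these 4 passed (Gbx2 1.80, adjusted p = 0.0616; Pax7 2.14, 0.143; Crabp2 0.20, 0.197; Mycn 0.43, 0.233), and none passed against control with the muscle score as a covariate. Only 1 gene of the list was higher without control 2, and 2 without control 3 or knockout 1, while 5 or 6 were lower whichever library was left out; against vehicle 0 were higher without knockout 2, knockout 3, vehicle 1 or vehicle 3.

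Of 25 tested mesenchymal genes of the transition, 5 were lower and 1 higher against control, and 7 lower and 0 higher with the muscle score as a covariate. Cdh11, the cadherin of mesenchyme, changed by -0.37 (adjusted p = 0.00265) and Mmp2, a matrix protease, by -0.33 (adjusted p = 0.00184), and both held in each alternative. Against vehicle Mmp2 passed (-0.24, adjusted p = 0.0169; lost without knockout 2 or vehicle 1) and Cdh11 did not (-0.12, adjusted p = 0.298). Col1a2 (-0.39, adjusted p = 0.0373) was lost when any 1 library but control 3 was left out, and was at 0.037 against vehicle (adjusted p = 0.885). The one rise was Acta2, smooth muscle actin (2.82, adjusted p = 0.0302), which was lost with the muscle score as a covariate, with only the groups compared, and without control 2, knockout 1 or knockout 2, and which did not pass against vehicle (1.56, adjusted p = 0.218). Without control 2, knockout 1 or knockout 2, 2 genes were lower and 0 higher, without control 1, 4 were lower and 2 higher, and without knockout 3, 3 were lower and 3 higher. Against vehicle the split turned, with 4 higher and 2 lower, among them the matrix gene Tnc (0.94, adjusted p = 0.0123) and Cd44 (0.93, adjusted p = 0.0137; lost without vehicle 2); without knockout 2, 2 were higher and 0 lower, and 2 higher and 1 lower without knockout 3 or vehicle 3, while 1 was lower without knockout 1, vehicle 1 or vehicle 2. In vehicle against control 5 genes of this list were lower and 0 higher (2.06% and 1.46% of all genes). Vehicle was the low group for Tnc, at 128, 183 and 211 CPM beside 316, 235 and 271 in control and 376, 296 and 329.6 in the knockout, and for Cd44, at 3.22, 2.44 and 2.86 beside 5.57, 4.48 and 5.71 and 5.299, 5.07 and 5.75.

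None of the 32 epithelial genes of the transition passed against control by edgeR, DESeq2 or limma-voom. By edgeR 2 had an unadjusted p below 0.05, both lower (Krt14 and Grhl1), a threshold for which no share over all genes is given here. In the alternatives, 1 gene was lower without control 2, 1 without knockout 3 and 1 with the replicate block, and with no filter 1 was lower and 1 higher. Cdh1, the E-cadherin gene repressed by SNAI, ZEB and TWIST proteins, was at 75.4, 41.3 and 80.4 CPM in the knockout, 78.3, 48.9 and 68.6 in control, 70.4, 68.3 and 78.1 in vehicle and 66.7, 67.2 and 73.7 in AzadC. It followed no group order, and its lowest libraries, knockout 2 and control 2, had the lowest epithelial marker sums as well (330.5 and 390.5 CPM, beside 481 to 656 CPM in the others). Cdh1 is itself part of these sums, so they are not an independent measure. The interval of its knockout change was -0.44 to 0.45 against control and -0.58 to 0.31 against vehicle (log2). Against vehicle 1 gene was higher, the basal keratin Krt5 (1.97, adjusted p = 0.00561), and 1 lower, Grhl3 (-0.65, adjusted p = 0.0451), which was lost without any 1 library but knockout 3. Without knockout 3, 3 genes were lower, and without knockout 2 or vehicle 3, 2 were higher. Krt5 was low in vehicle, at 1.79, 2.35 and 2.46 CPM beside 12.8, 7.28 and 17.8 in control and 8.63, 5.41 and 12.1 in the knockout.

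Of 26 genes of PDGF signalling besides Pdgfra, 4 were lower and 2 higher against control, and 3 lower and 1 higher against vehicle, where 6.43% and 7.83% of all genes were lower and higher against control and 4.13% and 6.7% against vehicle. With the muscle score as a covariate 4 were lower and 1 higher against control, and 5 lower and 0 higher against vehicle. The ligand gene Pdgfc fell from 126, 128 and 139 CPM in control to 107, 89.2 and 105 (-0.38, adjusted p = 0.00792; against vehicle -0.49, adjusted p = 0.00202), so that this ligand and both receptor genes were lower. The other main ligand of this receptor, Pdgfa, was at 28.5, 18.4 and 22.8 CPM in the knockout and 21.5, 13.1 and 23.5 in control, and the groups overlapped; against vehicle its change was 0.13 (adjusted p = 0.746). Nrp1, a co-receptor, was higher than control by 0.54 (adjusted p = 0.00343) and did not pass against vehicle (-0.063, adjusted p = 0.761), which itself exceeded control by 0.60 (adjusted p = 0.00878). Pik3r1, the regulatory subunit of PI3-kinase, was lower by -0.42 (adjusted p = 0.0205), and not with the muscle score or without control 2, control 3, knockout 1 or knockout 2, and it was at -0.041 against vehicle (adjusted p = 0.865). Without control 2, knockout 1 or knockout 2, 2 genes were lower and 1 higher, and 1 was higher without control 1 or control 3. The gene higher than vehicle, named after its values were seen, was the immediate early gene Egr1 (1.83, adjusted p = 0.0363), and no gene was higher without knockout 2, vehicle 1 or vehicle 3.

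AzadC gave no edgeR call against vehicle in any of these 6 lists. At an unadjusted p below 0.05, edgeR had 0 genes among the relatives, 0 among the partners, 4 in crest specification (2 higher), 6 in the mesenchymal list (5 higher), 3 in the epithelial list (2 higher) and 3 in PDGF signalling (1 higher). No share over all genes is given at this threshold, so these counts have no baseline either. DESeq2 called 1 gene in each of the crest specification, mesenchymal and epithelial lists, and limma-voom none.

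**Figure D5:**
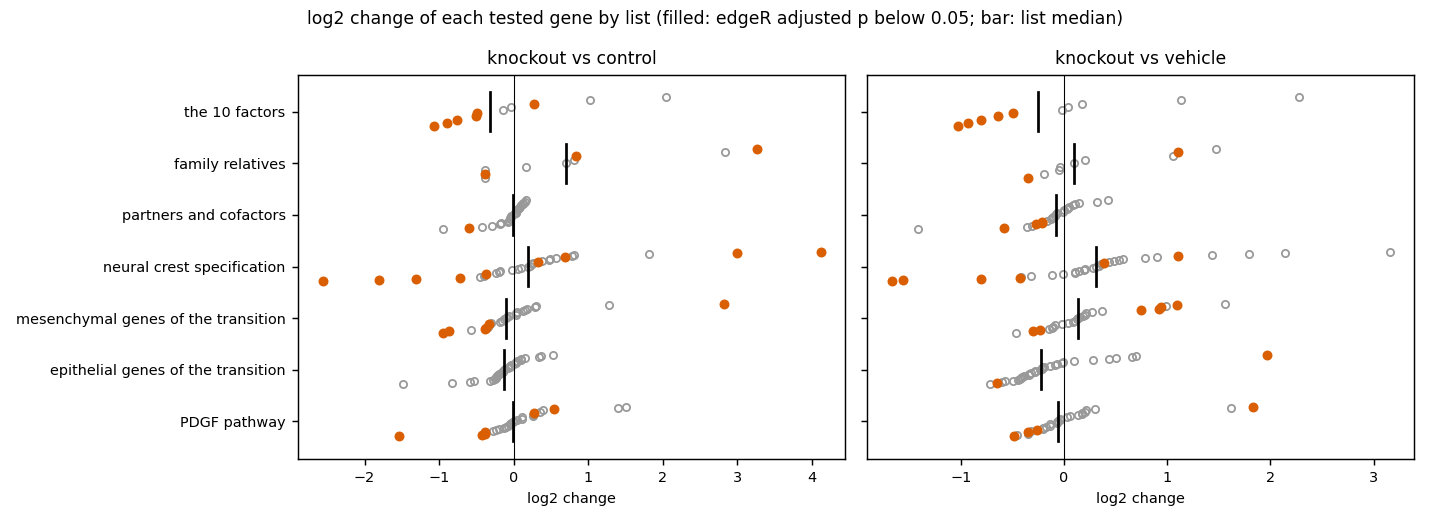
Log2 change (x axis) of each tested gene in the 10 factors and 6 lists, knockout against control and against vehicle; filled points passed edgeR's adjusted p of 0.05 and bars mark list medians. The 10 factors have 5 filled points to the left in both panels, and the epithelial list has none against control.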

How the data were processed

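RNA of palatal shelves was sequenced in 12 libraries, 3 in each of 4 groups, made from about 100 ng of total RNA each, per the labels. The authors deposited RSEM expected counts and TPM for every gene. The build was mm10 and the tools listed were RSEM 1.3.1, STAR 2.7.0, Trim Galore, FastQC and DESeq2, per the submitters' processing notes. The strand setting is not given in the sources used here. RSEM divides reads that fit several genes, so counts need not be whole, and genes with near copies are uncertain.

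Expected counts were rounded and fitted in R 4.3.3 with edgeR 4.0.16 (filterByExpr by group, TMM, 1 mean per group over all 12 libraries, glmQLFit and glmQLFTest). Benjamini-Hochberg adjusted p below 0.05 over 17335 genes was the threshold, and the common coefficient of biological variation was 0.152. The authors' TPM was used only for levels between genes and for ratios of paralogs. Depth of 12640536 to 33113790 counts sets the precision, and the lowest count of the 10 genes was 2, for Tfap2b in AzadC 2. Positions are from GENCODE M21 on mm10 and upstream windows from RefSeq. The 10 genes and all lists were chosen with earlier results of these data known. Genes named from each list are those with the smallest adjusted p, up to 4 for knockout against control and up to 2 for each other comparison, unless said otherwise; Cdh1, Pdgfa and the E proteins were named for their roles. Alternatives were leaving out each library, a block for the replicate number, a muscle score as a covariate, a fit of only the groups compared, other filters (none, or a mean above 1 CPM), other scaling (upper-quartile, RLE), limma-voom 3.58.1 and DESeq2 1.42.0. Some genes with similar profiles are not reported here. Scripts were tested on simulated data.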

Additional observations from a re-analysis of the deposited data

Results flagged for a closer look

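The knockout change (against control) and the AzadC change (against vehicle) differed for 4 of the 10 genes by edgeR's test of the difference itself, the interaction of both contrasts, where 4.4% of all genes differed and 2.2% in this direction. The difference was -1.10 log2 for Twist1, -1.17 for Snai1, -0.68 for Zeb2 and -0.50 for Pdgfra. In each case the gene was called lower in the knockout against control and was not called in AzadC against vehicle. Set against control instead, AzadC was higher for Zeb2 (log2 change 0.48, edgeR adjusted p = 0.0112) and was not called for the others. For Twist1, 3 of 3 knockout libraries lay below all control libraries, and AzadC 2 and 3 lay above all vehicle libraries. The calls of Twist1 and Zeb2 held in each of 20 alternatives, while that of Pdgfra was lost in 11 of them and that of Snai1 in 12. No explanation was tested.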

How the results depend on the processing

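In the knockout against control the number of the 10 genes called was 4 to 6 with 1 library left out (4 without control 1 or knockout 2) and 5 to 7 in the other alternatives. The calls of Twist1, Snai1, Zeb2 and Pdgfra against control held throughout, as did those of Snai1, Zeb2 and Pdgfra against vehicle. Against vehicle the count was 3 to 5 with 1 library left out and 7 with no filter, which added Tfap2b and Hic1 (adjusted p = 0.0382). For the difference it was 2 to 4 with 1 library left out, 3 with the replicate block or the muscle score, and 6 with DESeq2 or no filter. The single call of vehicle against control, Zeb2, became 0 with the replicate block, with the muscle score, and in each fit that left out 1 library (0 to 0). AzadC against vehicle gave 0 in all 15 alternatives. DESeq2 called 0.513% of all genes there and no filter 0.385%, against 0.0115%. The main fit did not take the replicate numbers as pairs. Same-numbered knockout and control libraries correlated at 0.064 to 0.24 in their deviations, and 6 of 6 libraries correlated best with their own number. For AzadC and vehicle the values were -0.066 to 0.036, with 2 of 6 libraries. Whether same-numbered knockout and control libraries were matched was not tested. With the replicate block, knockout against control gave 5 calls, Zeb1 being lost (adjusted p = 0.0575).

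Changes of sign were limited to values that had not passed. Against control, the muscle score turned the knockout change of Hic1 (-0.94), Tfap2a (0.32) and Snai2 (0.018), and Tfap2a ran from -0.21 to 0.15 with 1 library left out. Against vehicle it turned Hic1 (-0.0298) and Tfap2a (0.18), and with 1 library left out Tfap2a ran from -0.18 to 0.14 and Snai2 from -0.024 to 0.14. It also turned the difference for Hic1 (-0.95). For AzadC against vehicle the muscle score turned Hic1 (0.017) and Pdgfra (-0.0076); with 1 library left out Hic1 ran from -0.935 to 0.36, Pdgfra from -0.042 to 0.048, Snai1 from -0.014 to 0.21, Tfap2b from -2.71 to 0.31, Twist2 from -0.069 to 0.26 and Zeb1 from -0.018 to 0.056. For vehicle against control, Pdgfra turned with limma-voom (0.013), upper-quartile scaling (0.012), the replicate block (0.00087) and the muscle score (0.035), Tfap2b with limma-voom (0.18) and the muscle score (0.55), and Tfap2a (0.14) and Twist2 (-0.044) with the muscle score. With 1 library left out, that comparison ran from -0.67 to 0.29 for Hic1, -0.11 to 0.065 for Pdgfra, -0.23 to 0.17 for Snai1, -0.19 to 0.16 for Tfap2a, -0.87 to 0.49 for Tfap2b and -0.071 to 0.19 for Twist2. The cause was not tested.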
